A study of Gossypium hirsutum with 3 samples.

Results

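In 46 homeologous gene pairs of upland cotton, one copy was near-silent in leaves while its partner on the other subgenome was expressed. A pair was kept when the mean of the 3 leaf libraries was below 0.1 FPKM in one copy and 1 FPKM or more in the other. FPKM is the number of fragments scaled to the length of the exon model and to the mapped fragments of the library, so levels of genes are given per length. The pairs came from lists of 2580 pairs with the A copy on A01 or on part of A02, used for their identifiers alone. They had to lie on corresponding chromosomes, that is A01 with D01, or A02 with D02 or D03. Of 2538 such pairs, 1975 were expressed, with a mean of 1 FPKM or more in at least one copy, and the 46 near-silent pairs made up 2.33% of these. They comprised 92 of the 70478 genes measured in each library. In 23 pairs the A copy was near-silent and in 23 the D copy.

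Gossypium hirsutum is an allotetraploid, a species whose nucleus carries the complete chromosome sets of 2 ancestral diploids, here named the A and the D subgenome. Most genes therefore exist as homeologs, 2 copies descended from the same ancestral gene, one on each subgenome. Homeologs can share expression, be unequally expressed, or have one copy that yields little or no transcript in a tissue, and such silencing can differ between organs of the same plant. A copy that is silent in leaves may therefore be active elsewhere, which leaf libraries do not show.

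All libraries were of one group, leaves of 20-day-old TM-1 plants grown in a greenhouse, with no treatment described and with 3 replicates. The comparison is therefore between the D and the A copy within each library, and it covers a single cultivar, organ and age. The labels do not say whether the replicates came from separate plants, so p-values measure the spread between these libraries, which may be technical. Whole leaves were used, so fewer cells expressing a gene and less RNA per cell cannot be told apart. The gene identifiers carry no names in the tables used here, hence leaf marker genes were not checked and most genes are given by identifier. Across all genes, the libraries correlated at Spearman's rho of 0.981 to 0.987, between 15650 and 15985 genes were listed at 0 in each, and the commonest ratio of low values between libraries, which reflects their relative depth, was 0.96, 0.99 or 1.04.

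The near-silent pairs stood at both edges of the distribution of D against A levels. Their values chose them, so their levels are a description and were not tested. In the fit of all 1999 expressed pairs with limma, 480 pairs (24%) differed between the D and the A copy at an adjusted p below 0.05 and an absolute log2 fold change of 1 or more. All 46 near-silent pairs were among them, as the rule that chose them implies. Pairs with the D copy higher made up 13.3% of those tested, and near-silent A copies accounted for 23 of the 256 such pairs on corresponding chromosomes (8.98%). Pairs with the A copy higher made up 10.8%, and near-silent D copies accounted for 23 of 207 (11.1%). The 3 values of the D copy and the 3 of the A copy did not overlap in any near-silent pair, against 62.4% of all pairs tested without overlap.

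**Figure D1:**
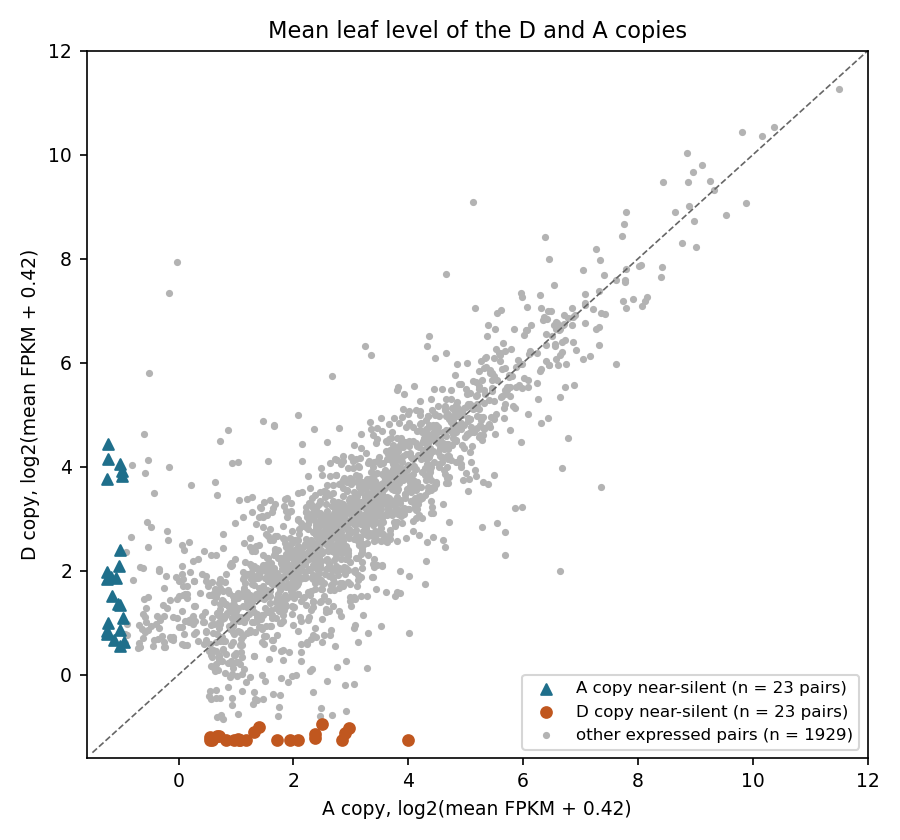
Mean level of the D copy (y axis) against the A copy (x axis) for each expressed pair on corresponding chromosomes, both as log2(mean FPKM + 0.42), with the dashed line at equal levels. The 23 pairs with a near-silent A copy (triangles) lie along the left edge and the 23 with a near-silent D copy (circles) along the lower edge, while the other 1929 pairs (grey) surround the line.

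The silent copies were listed at 0 in every library in 17 of the 46 pairs, above 0 in 1 library in 9, in 2 libraries in 11 and in all 3 in 9. The numbers above 0 were alike between libraries, at 19, 20 and 19 copies in replicates 1, 2 and 3. The highest single value of any silent copy was 0.171 FPKM, in Gh_A02G0500. Summed over the 46 pairs, silent copies gave 1.38, 1.59 and 1.39 FPKM in the 3 libraries, against 214, 222 and 215 FPKM for the active copies. The silent side thus held 0.639%, 0.712% and 0.645% of the summed level of these pairs.

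The 2 silent sides were equal in number and differed in how low the silent copy was. A silent D copy was listed at 0 in every library in 12 of 23 pairs (52.2%), and a silent A copy in 5 of 23 (21.7%). In the range from 0.05 to below 0.1 FPKM the order was the other way round, with 3 silent D copies and 12 silent A copies. With the limit lowered to 0.05 FPKM, 31 pairs remained, of which 11 had a silent A copy and 20 a silent D copy. At a limit of 0.2 FPKM there were 32 silent A and 31 silent D copies, and with the active minimum at 0.5 FPKM 32 of each, so the numbers were near-equal at these limits and unequal at 0.05 FPKM. Over genes of any level, the shares listed at 0 in every library were 17.4% of 6691 genes on D01, D02 and D03 and 16.4% of 3986 genes on A01 and A02. Genes with a mean below 0.1 FPKM are the closer comparison. Of these, 1165 of 1713 on the D chromosomes and 654 of 981 on the A chromosomes were listed at 0, a larger part than on either silent side.

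**Figure D2:**
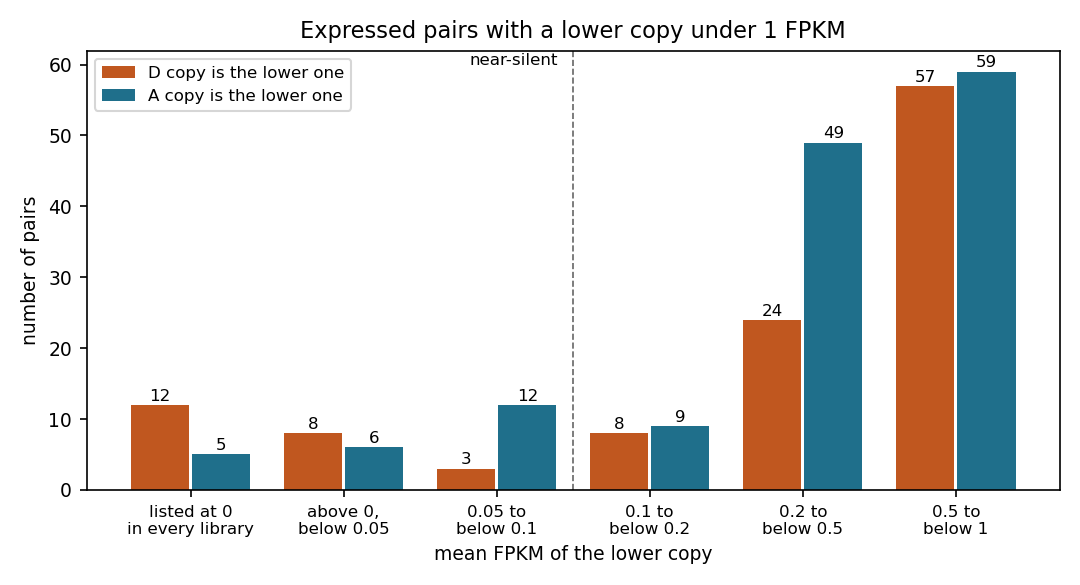
Number of expressed pairs on corresponding chromosomes (y axis) by the mean FPKM of the lower copy (x axis), separately for pairs with the D copy lower and pairs with the A copy lower. The 3 classes left of the dashed line hold the 46 near-silent pairs, with 12, 8 and 3 pairs whose D copy was lower against 5, 6 and 12 whose A copy was lower.

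Near-silent pairs had no gap around them on the scale of the lower copy. Another 17 expressed pairs had a lower copy from 0.1 to below 0.2 FPKM, 73 from 0.2 to below 0.5 FPKM, and 116 from 0.5 to below 1 FPKM, whereas both copies reached 1 FPKM in 1723 pairs. In the class from 0.2 to below 0.5 FPKM, 24 pairs had the D copy lower and 49 the A copy. Just inside the limit were Gh_D01G0931/Gh_A01G0893, Gh_D01G0439/Gh_A01G0432 and Gh_D01G0447/Gh_A01G0439, with lower copies at 0.0937, 0.0950 and 0.0963 FPKM. Just outside were Gh_D01G0711/Gh_A01G0692 and Gh_D02G0554/Gh_A02G0494, both at 0.103 FPKM, and Gh_D01G2119/Gh_A01G2149 at 0.110 FPKM.

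The active copies nearest the minimum were as close to it. Gh_A01G0506, Gh_A01G1008 and Gh_D01G2091 averaged 1.04 FPKM each and were kept. In Gh_D01G1219/Gh_A01G1130, Gh_D01G1394/Gh_A01G2127 and Gh_D01G0646/Gh_A01G0632 the higher copy averaged 0.955, 0.974 and 0.995 FPKM, and these pairs were left out. A gene list by these limits therefore has soft edges, and membership of these pairs says little about how they differ from each other.

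Single libraries crossed the limits more often than the means. The silent copy was below 0.1 FPKM in every library in 31 of 46 pairs, and the active copy reached 1 FPKM in every library in 37. Both held in 25 pairs, 11 with a silent A copy and 14 with a silent D copy. When pairs were chosen on 2 libraries by the same limits, 47, 45 and 42 pairs were obtained with replicate 1, 2 or 3 held out. In the library that had not been used, 34 of 47 (72.3%), 29 of 45 (64.4%) and 30 of 42 (71.4%) met both limits again. The active copy was above the silent copy in 47 of 47, 44 of 45 and 41 of 42 pairs of the held-out library.

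The 2 pairs whose order turned in the held-out library were not among the 46. Gh_D01G2043 was at 0, 20.0 and 0 FPKM in replicates 1 to 3, and its partner Gh_A01G1803 at 14.4, 18.8 and 0 FPKM. These copies changed between 0 and more than 10 FPKM among replicates, and they were the only 2 of all 70478 genes to be listed at 0 in one library and at 10 FPKM or more in another. A listed 0 can thus stand beside a high value of the same gene, although none of the 46 active copies was at 0 in any library. In the other pair, Gh_D01G0403 was at 0.171, 0 and 0.291 FPKM and Gh_A01G0369 at 0.821, 1.54 and 0.0603 FPKM, so neither copy was far above the limits.

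Active copies of near-silent pairs were mostly weakly expressed. Their median was 2.33 FPKM (quartiles 1.43 and 4.81, range 1.04 to 21.3, n = 46), against 8.50 FPKM (quartiles 3.94 and 20.1) for the higher copy of the other 1929 expressed pairs. Active copies from 1 to below 2 FPKM numbered 19 of 46 (41.3%), against 8.97% of the higher copies in the other pairs. At 10 FPKM or more were 7 of 46 (15.2%), against 43.9%. A weakly expressed pair meets the 0.1 FPKM limit at a smaller ratio between its copies, so this contrast is partly set by the rule and was not tested.

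The active copies differed by silent side mainly at the top of the range. Where the A copy was silent, the active D copies had a median of 3.16 FPKM (quartiles 1.48 and 9.03), and 6 of 23 were at 10 FPKM or more. Where the D copy was silent, the active A copies had a median of 2.07 FPKM (quartiles 1.44 and 4.77), and 1 of 23 was at 10 FPKM or more. Between 5 and 10 FPKM lay 4 active copies, all of them A copies, and no active D copy. From 2 to below 5 FPKM there were 9 active D copies and 7 active A copies, and from 1 to below 2 FPKM 8 and 11. The lower quartiles were nearly equal, and the ranges overlapped over most of their length.

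**Figure D3:**
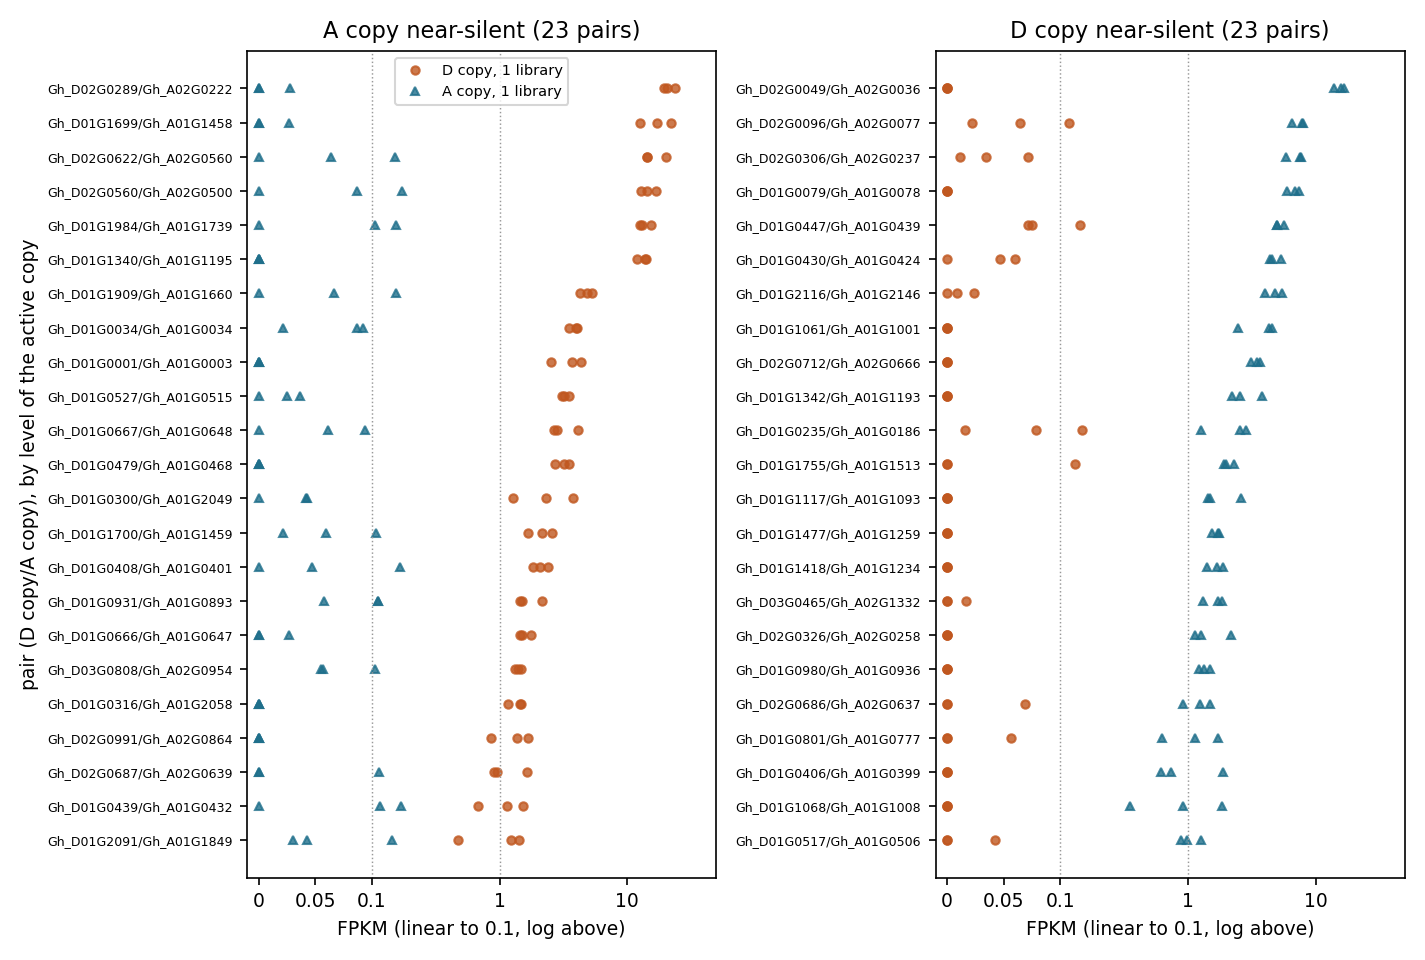
FPKM in each of the 3 libraries (x axis, linear to 0.1 and logarithmic above) for the D copy (circles) and the A copy (triangles) of each near-silent pair (y axis), with silent A copies left and silent D copies right and dotted lines at the limits of 0.1 and 1 FPKM. No active copy overlaps its silent partner, and 6 active D copies but 1 active A copy average 10 FPKM or more.

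The most strongly expressed of the active copies was Gh_D02G0289, at 19.6, 20.7 and 23.8 FPKM, while its partner Gh_A02G0222 was at 0, 0 and 0.0275 FPKM. On the log2(FPKM + 0.42) scale, on which all fold changes are given and which understates the change of low genes, the D copy was higher by 5.66 ± 0.11 (SE, n = 3 libraries). This was the largest difference among the 29 near-silent pairs whose silent copy was above 0 in at least 1 library. Their absolute log2 fold changes had a median of 2.58 (range 1.51 to 5.66), against 0.50 over all 1999 pairs tested, and no fold change is given where the silent copy was listed at 0 throughout.

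The next 4 active D copies all exceeded 12 FPKM in every library. Gh_D01G1699 was at 17.2, 22.2 and 12.6 FPKM and its partner Gh_A01G1458 at 0.0271, 0 and 0 FPKM, with a log2 fold change of 5.33 ± 0.20 (SE). Gh_D02G0622 was at 14.2, 14.4 and 20.2 FPKM and Gh_A02G0560 at 0.0643, 0.150 and 0 FPKM. Of these pairs, the first had a single low value left on the silent side and the second had values in 2 libraries. Gh_D02G0560 was at 16.9, 14.2 and 12.8 FPKM and Gh_A02G0500 at 0.0865, 0 and 0.171 FPKM. Gh_D01G1984 was at 12.6, 13.1 and 15.4 FPKM and Gh_A01G1739 at 0, 0.105 and 0.153 FPKM. In both pairs a silent value passed 0.1 FPKM in at least one library, yet the lowest active value remained above 12 FPKM.

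On the other side, Gh_A02G0036 stood apart from the remaining active A copies. It was at 14.1, 15.8 and 16.7 FPKM, while Gh_D02G0049 was listed at 0 in all 3 libraries. No other active A copy reached 10 FPKM. In the next pair, Gh_D02G0096 was at 0.0646, 0.118 and 0.0218 FPKM and Gh_A02G0077 at 7.91, 7.84 and 6.52 FPKM. In Gh_D02G0306/Gh_A02G0237 the D copy was at 0.0342, 0.0116 and 0.0718 FPKM and the A copy at 7.60, 7.68 and 5.82 FPKM. These D copies were very low but were above 0 in all 3 libraries, with log2 fold changes of -4.01 ± 0.13 and -4.01 ± 0.14 (SE).

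The remaining pairs at the top of this side were again of both kinds. Gh_D01G0079 was listed at 0 in all libraries, and Gh_A01G0078 was at 6.92, 5.99 and 7.46 FPKM. Gh_D01G0447 was at 0.0719, 0.0747 and 0.142 FPKM, and Gh_A01G0439, which is listed as a transcription factor (TF) of the homeobox group, at 5.70, 4.95 and 5.02 FPKM. The first silent copy left no value in any library, and the second was the one closest to the limit.

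Replicate spread of the active copies followed their level. The coefficient of variation over the 3 libraries had a median of 15.0% for active copies and 11.3% for the higher copies of the other expressed pairs. Within classes of level the medians were close, at 23.3% and 23.0% from 1 to below 2 FPKM, 14.4% and 15.7% from 2 to below 5, 10.7% and 11.4% from 5 to below 10, and 10.7% and 9.62% at 10 FPKM or more, up to the highest level of an active copy. The least stable active copy was Gh_A01G1008, at 0.917, 0.354 and 1.86 FPKM. Its values fell below 1 FPKM in 2 of 3 libraries, and the pair was kept through replicate 3.

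TFs bind DNA and set the transcription of other genes, and the study listed homeologous TFs with unequal expression in these leaves. That list was made on the same libraries, so it is no independent evidence of direction. It held the active copy of 4 near-silent pairs (8.70% of 46) and none of the silent copies. Of all 1975 expressed pairs it held 36 (1.82%), and 35 of these were among the 463 pairs called here on corresponding chromosomes (7.56%). The share among near-silent pairs is therefore close to that among all pairs with unequal copies.

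Besides the homeobox gene described above, the active TF copies stayed below 4 FPKM in every library. Gh_D01G0527, of the plant-specific B3 family, was at 3.49, 3.19 and 3.09 FPKM, and Gh_A01G0515 at 0.0363, 0 and 0.0255 FPKM. Gh_D01G0980 was listed at 0 in all libraries, and Gh_A01G0936, of the MYB-related family, was at 1.33, 1.49 and 1.22 FPKM. Gh_D01G1068 was also at 0 in all libraries, and its partner Gh_A01G1008, the variable gene above, belongs to the bZIP family of leucine zipper TFs. Of the biased TFs that the study lists with histone marks, 25 fell in the 1975 expressed pairs (1.27%) and 0 in near-silent pairs. The 463 called pairs held 24 (5.18%). At such low shares, 0 of 46 says little.

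The blue module of the study, a group of co-expressed genes related to leaves, also held 4 active copies and no silent copy. The study built the module from genes with unequal homeologs, so this list too is no independent evidence of direction. Its share was 8.70% of near-silent pairs, against 2.18% of the 1975 expressed pairs and 9.07% of the 463 called pairs, so it too was close to the share among pairs with unequal copies. Besides Gh_A02G0036 these were Gh_D01G0001, Gh_D01G0479 and Gh_D01G0666. Gh_D01G0001 was at 2.53, 3.70 and 4.35 FPKM and Gh_A01G0003 at 0 in all libraries. Gh_D01G0479 was at 3.52, 3.23 and 2.73 FPKM and Gh_A01G0468 at 0 in all libraries. Silent partners of the module were thus at 0 throughout in 3 of 4 pairs, the exception being Gh_A01G0647.

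Trimethylation of histone H3 at lysine 4 (H3K4me3) marks the starts of transcribed genes. The study described a broad domain of it in Cluster 1, in promoters, and in Cluster 3, in gene bodies, for both subgenomes. The list used here held the A-subgenome genes of Cluster 1 alone. Of the A copies, 3 of 46 (6.52%) were in that list. The shares were 197 of 1975 (9.97%) among expressed pairs and 29 of 463 (6.26%) among called pairs. The 3 A copies differed in state. The A copies Gh_A01G0003 and Gh_A01G0893 were near-silent, with Gh_A01G0893 at 0.111, 0.0581 and 0.112 FPKM beside Gh_D01G0931 at 1.49, 1.46 and 2.16 FPKM. The A copy Gh_A01G1093 was the active one, at 1.49, 2.60 and 1.43 FPKM, beside Gh_D01G1117 at 0 in all libraries. Histone marks themselves were not analysed here.

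Gene numbers in the identifiers were taken as gene order along each chromosome, so positions are given as gene order. The highest D numbers may not follow it, since Gh_D01G2263 to Gh_D01G2308 were paired with Gh_A01G0189 to Gh_A01G0238. Near-silent pairs were found on each of the 3 chromosome combinations. A01 with D01 held 33 of 1199 expressed pairs (2.75%), 17 with a silent A copy and 16 with a silent D copy. A02 with D02 held 11 of 475 (2.32%), 5 with a silent A copy and 6 with a silent D copy. A02 with D03 held 2 of 301 (0.664%), one of each kind. The near-silent A copy on this last combination was Gh_A02G0954 and the near-silent D copy was Gh_D03G0465.

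On A01 with D01 the near-silent pairs were spread over most of the gene order. Gene numbers of A01 from 2022 on belong to a range in which the study's list places genes on unplaced scaffolds, and they give no position on the chromosome. With these left out, the expressed pairs were divided by gene order into 3 parts of nearly equal size, in which near-silent pairs numbered 14, 10 and 6 and the other pairs 361, 364 and 368. Silent A copies numbered 8, 2 and 5 over these parts, and silent D copies 6, 8 and 1. The single silent D copy in the last part was Gh_D01G1755, and from Gh_A01G1660 to Gh_A01G1849 the last 3 near-silent pairs all had a silent A copy. This holds for A01 order without the scaffold range. Left out with that range was the silent D copy Gh_D01G2116, whose D01 number is above that of Gh_D01G2091, the partner of Gh_A01G1849. These are small counts from a description and were not tested.

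**Figure D4:**
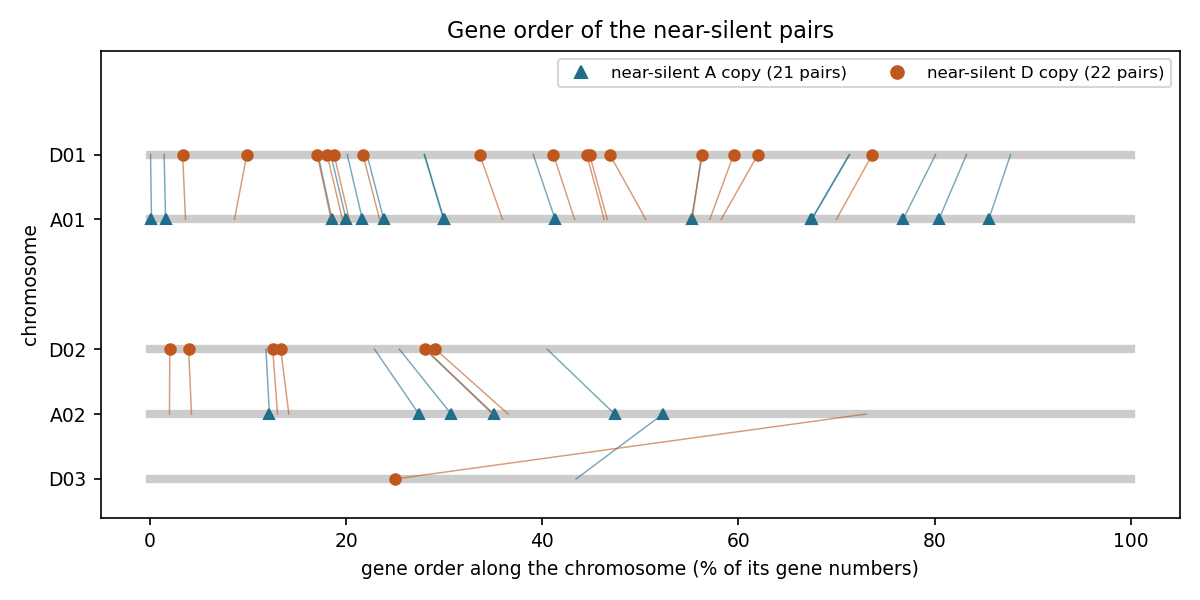
Gene order of the near-silent pairs along each chromosome (x axis, % of the gene numbers of that chromosome), with lines joining the D and A copies of a pair and a symbol on the silent copy, for 21 pairs with a silent A copy and 22 with a silent D copy outside the unplaced scaffold range. Near-silent copies of both subgenomes are mixed along A01 and D01, with some runs of the same side. Among the pairs drawn, the last on A01 have a silent A copy. The silent D copy Gh_D01G2116, at 88.8% of the D01 gene numbers, is not drawn because its A copy lies in the scaffold range.

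Neighbouring near-silent pairs were separated by a median of 24 other expressed pairs and by at most 199. Of 40 steps between neighbours, 16 (40.0%) joined pairs with the same silent side. In 5 steps the A copies lay within 2 gene numbers of each other. Both pairs had a silent A copy in 2 of these 5, and the silent side changed from one subgenome to the other in 3.

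One of the steps within the same side joined Gh_D01G1699/Gh_A01G1458, described above, to Gh_D01G1700/Gh_A01G1459. Gh_D01G1700 was at 1.68, 2.57 and 2.16 FPKM and Gh_A01G1459 at 0.0219, 0.108 and 0.0596 FPKM. The pair before them in the gene order, Gh_D01G1698/Gh_A01G1457, was not near-silent, with means of 31.4 FPKM for the D copy and 3.80 FPKM for the A copy. It was also called higher in D, by 2.91 ± 0.11 on the log2 scale (SE), with an adjusted p of 9.49e-07 in limma. At 3 successive genes the A copy was thus lower than the D copy.

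The other such step joined Gh_D01G0666/Gh_A01G0647 and Gh_D01G0667/Gh_A01G0648. Gh_D01G0666 was at 1.49, 1.45 and 1.75 FPKM and Gh_A01G0647 at 0.0269, 0 and 0 FPKM. Gh_D01G0667 was at 2.68, 2.82 and 4.11 FPKM and Gh_A01G0648 at 0, 0.0609 and 0.0936 FPKM. The expressed pair before them, Gh_D01G0665/Gh_A01G0646, was highly expressed from both copies, with means of 406 FPKM for the D copy and 215 FPKM for the A copy and a log2 fold change of 0.92 ± 0.10 (SE), below the threshold of 1. Near-silent A copies here lay next to a strongly expressed A gene.

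In the remaining 3 steps the silent copy changed sides within a few genes. Gh_D01G0406 was at 0 in all libraries beside Gh_A01G0399 at 0.730, 0.612 and 1.89 FPKM, whereas in the neighbouring pair Gh_D01G0408 was at 2.08, 2.41 and 1.83 FPKM beside Gh_A01G0401 at 0.166, 0.0472 and 0 FPKM. Gh_D01G1342 was at 0 in all libraries beside Gh_A01G1193 at 3.79, 2.54 and 2.21 FPKM, whereas Gh_D01G1340 was at 13.8, 11.9 and 14.0 FPKM beside Gh_A01G1195 at 0 in all libraries. The step from Gh_D01G1342 to Gh_D01G1340 is the clearest change of side, since both silent copies were listed at 0 throughout. The pair between them, Gh_D01G1341/Gh_A01G1194, was expressed from both copies, with means of 3.78 FPKM for the D copy and 2.57 FPKM for the A copy.

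The change of side on A02 with D02 involved low values. Gh_D02G0686 was at 0, 0 and 0.0685 FPKM and Gh_A02G0637 at 0.919, 1.48 and 1.25 FPKM. Gh_D02G0687 was at 0.957, 1.63 and 0.907 FPKM and Gh_A02G0639 at 0, 0.113 and 0 FPKM. Both active copies dipped below 1 FPKM in at least one library. The pair between them by A gene number, Gh_D02G0685/Gh_A02G0638, was higher in A, with means of 2.45 FPKM for the D copy and 8.64 FPKM for the A copy, a difference of -1.61 ± 0.28 on the log2 scale (SE, limma adjusted p = 0.00198).

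A D copy was out of gene order with its neighbours in 4 of 45 near-silent pairs with a neighbour on both sides (8.89%), against 107 of 1925 other expressed pairs (5.56%). Outside the scaffold range the counts were 3 of 42 (7.14%) and 90 of 1853 (4.86%). That range was set by A gene numbers alone, so pairs with high D numbers remained in these counts. The 4 pairs were Gh_D02G0289/Gh_A02G0222, which also had the highest active copy, Gh_D01G1984/Gh_A01G1739, Gh_D02G0686/Gh_A02G0637 and Gh_D01G0300/Gh_A01G2049. In the last, which lies in the scaffold range, Gh_D01G0300 was at 2.30, 3.76 and 1.27 FPKM and Gh_A01G2049 at 0.0422, 0 and 0.0425 FPKM. For Gh_D02G0289, the D copy of the pair before was Gh_D02G2387 and that of the pair after Gh_D02G0290. Its place in this count thus rests on the distant number of Gh_D02G2387, while it stands next to Gh_D02G0290. The scaffold range held 3 of 46 near-silent pairs (6.52%) and 73 of 1929 others (3.78%).

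Expressed pairs beside the near-silent pairs were compared next. The rule did not choose them directly, but it shaped the set, since neighbours that were near-silent themselves were left out. For each near-silent pair, the nearest expressed pair on either side that was not near-silent itself was taken, which gave 82 pairs, of which 4 flanked both a silent A and a silent D copy. Of the 41 pairs next to silent A copies, 4 were called higher in D (9.76%) and 7 higher in A (17.1%). Of the 45 next to silent D copies, 10 were called higher in D (22.2%) and 6 higher in A (13.3%). Among all other expressed pairs, with these flanking pairs included, 12.1% were called higher in D and 9.54% higher in A.

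Flanking pairs, from which near-silent pairs had been left out, were called towards the active side in 10 of 86 cases (11.6%). They were called towards the silent side in 17 of 86 (19.8%). Neighbours near-silent on the same side or on the other side were left out. These counts and the differences between flanks are thus partly set by the rule, and keeping such neighbours was not tried. The mean D minus A difference on the log2 scale was -0.04 ± 0.01 next to silent A copies and 0.31 ± 0.02 next to silent D copies (SD over 3 libraries). It was 0.06 ± 0.003 in all other expressed pairs. The difference between flanks of silent A and of silent D copies was -0.36 ± 0.03 (SD) and had the same sign in 3 of 3 libraries, at -0.32, -0.38 and -0.37. These SDs cover libraries alone, and the flanking pairs varied far more among themselves, with a median of 0.003 (quartiles -0.68 and 0.55) next to silent A copies and 0.17 (quartiles -0.45 and 0.61) next to silent D copies. Taken as a difference of medians in each library, it was -0.20 ± 0.03 (SD). An exact two-sided sign-flip permutation test of the means gave p = 0.25, the smallest value that 3 libraries allow. With the 2 nearest pairs on each side, the difference shrank to -0.0093 ± 0.0438 (SD, p = 1 in the same exact test), so it rests on the pair next in line.

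The flanks called towards the active side included pairs with a wide gap between copies. Beside the near-silent A copy Gh_A01G2058, Gh_D01G0317/Gh_A01G2059 had means of 3.12 FPKM for the D copy and 0.160 FPKM for the A copy, a difference of 2.61 ± 0.15 on the log2 scale (SE, limma adjusted p = 1.00e-05). Beside the near-silent D copy Gh_D02G0096, Gh_D02G0095/Gh_A02G0076 had means of 2.57 FPKM for the D copy and 13.5 FPKM for the A copy, a difference of -2.26 ± 0.19 on the log2 scale (SE, limma adjusted p = 5.74e-05). In the opposite direction, beside the near-silent D copy Gh_D01G0235, the D copy of Gh_D01G2263/Gh_A01G0189 averaged 22.1 FPKM and the A copy 1.22 FPKM. The D copy of this last pair lies far from Gh_D01G0235 in gene number, so gene numbers place the pair as a flank on A01 alone. The expressed pairs that follow on A01 also had high D01 numbers in rising order, from Gh_D01G2266 to Gh_D01G2308. Whether these genes lie beside Gh_D01G0235 on D01 was not tested. These flanks were picked from their values as examples of each direction.

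Genes directly adjacent to a silent or an active copy, with a gene number one above or below it, were compared after leaving out copies of near-silent pairs. Of the 87 genes beside silent copies, 37 (42.5%) were below 1 FPKM, against 42 of the 86 beside active copies (48.8%) and 40.7% of all genes of these chromosomes. The 87 genes had a mean log2(FPKM + 0.42) of 1.49 ± 0.05, and the 86 beside active copies 1.18 ± 0.03 (SD over 3 libraries). Over all 10677 genes of these chromosomes the mean was 1.49 ± 0.05. The difference between genes beside silent and beside active copies was 0.31 ± 0.03 (SD) and was positive in 3 of 3 libraries (exact sign-flip permutation test, two-sided, p = 0.25, the smallest possible). It was 0.17 ± 0.03 with the copies of near-silent pairs kept among the adjacent genes (92 beside silent and 91 beside active copies). It was 0.18 ± 0.04 without the scaffold range and 0.13 ± 0.06 over adjacent genes with a mean of 1 FPKM or more, and with gene numbers up to 3 away it reversed to -0.032 ± 0.007.

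A mean below 0.1 FPKM was found in 18 of the 87 genes beside silent copies (20.7%), in 20 of the 86 beside active copies (23.3%) and in 2694 of all 10677 genes (25.2%). With the copies of near-silent pairs kept, among them the adjacent silent copies Gh_A01G0647 and Gh_A01G0648 and Gh_A01G1458 and Gh_A01G1459, the counts were 22 of 92 (23.9%) beside silent copies and 21 of 91 (23.1%) beside active copies. The order of these shares thus turned with the choice of genes. Without the copies of near-silent pairs, medians were 2.23 FPKM beside silent copies, 1.75 FPKM beside active copies and 2.29 FPKM over all genes of these chromosomes.

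**Figure D5:**
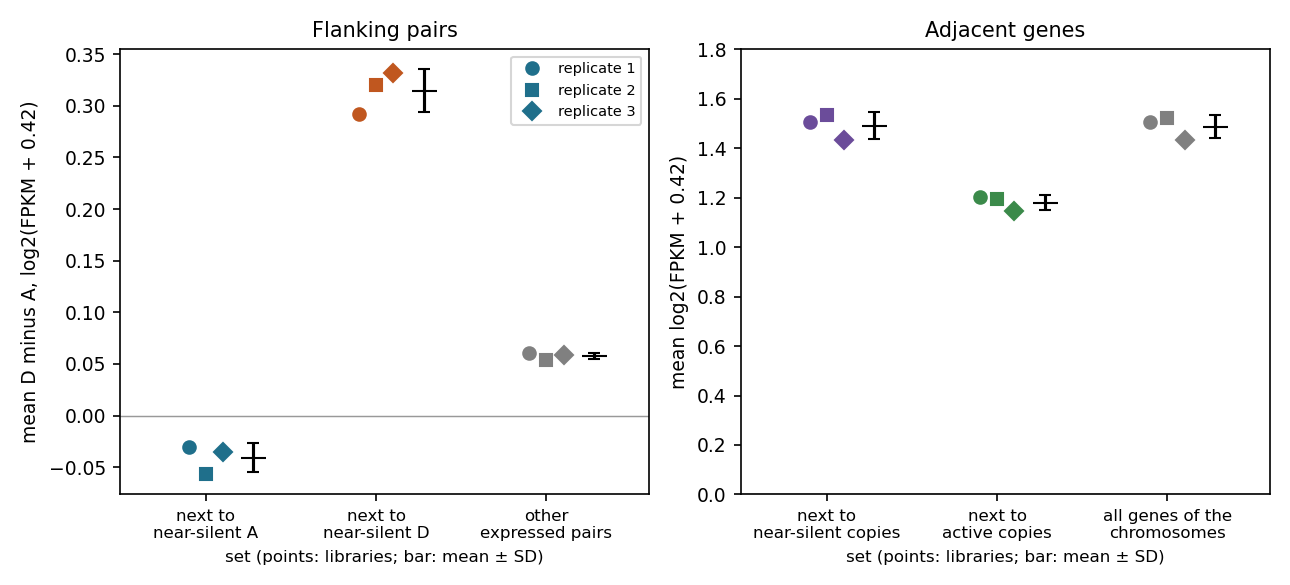
Left, mean D minus A difference on the log2(FPKM + 0.42) scale (y axis) for pairs flanking a near-silent A copy, pairs flanking a near-silent D copy and the other expressed pairs. Right, mean log2(FPKM + 0.42) (y axis) of genes adjacent to near-silent copies, of genes adjacent to active copies and of all genes of the chromosomes. Symbols are the 3 libraries and bars the mean and SD. Flanks of silent A copies average -0.04 and flanks of silent D copies 0.31, and the bars do not show the wider spread among pairs or genes.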

How the data were processed

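RNA-seq was analysed in 3 replicate leaf libraries of Gossypium hirsutum TM-1. Per the authors' methods, reads were trimmed in fastp at a minimum quality of 25 and a minimum length of 20 bp, Hisat2 aligned them to the G. hirsutum genome, and StringTie gave one FPKM value per gene of the CottonGen annotation. Versions, and the treatment of reads that match both homeologs, are not given in the sources used here. Where copies are nearly identical, reads may be split or misassigned between them. The deposited FPKM values were used without further normalization. FPKM are not counts, and fragments per gene were not recovered from them, so no counting interval is given and an exact 0 is reported as listed at 0. The read totals that the study lists for these libraries were not used here. FPKM sums were 941105, 942419 and 1.01248e+06.

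The near-silent pairs, the gene lists and the tests were chosen with earlier results of these data known. The pseudocount of 0.42 had been fitted earlier on these libraries. Pairs were taken by identifier from the study's lists, 2000 in the first list and 1999 in a list of expressed pairs, with 1419 in both. The pairs taken had A copies on A01 and part of A02 alone, so the other A chromosomes were not covered. D and A copies of 1999 expressed pairs were compared on log2(FPKM + 0.42) in limma 3.58.1 (R 4.3.3), with Benjamini-Hochberg adjustment and no replicate block. A and D values of a library come from the same RNA, which pairs them by replicate number. Their deviations from the copy means correlated at 0.179, 0.563 and 0.628 in replicates 1 to 3 over 1975 pairs. The script was tested on simulated pairs. Flanking pairs and adjacent genes were compared with exact sign-flip tests over the 3 libraries in Python 3.11.15 with numpy 2.4.6 and pandas 2.3.3, and plots were drawn with matplotlib 3.10.9.

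Named were the 5 pairs with the highest active copy on each silent side, pairs with a copy in a TF list, Cluster 1 or the blue module, pairs within 2 gene numbers of another near-silent pair, pairs out of gene order, and the 3 pairs nearest each limit. Neighbours of these and pairs whose order turned in a held-out library were named after their values were seen. Alternatives covered the limits, the pseudocount, the filter, centring, a trend in variance, the replicate block, the pair list, the reach of flanks and each library left out. Of 70478 identifiers 0 matched the RefSeq gene table, so names, coordinates and sequences are not given. Pairs joining chromosomes that do not correspond were not members.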

Additional observations from a re-analysis of the deposited data

How the results depend on the processing

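The number of near-silent pairs depended on the limits. A silent limit of 0.05 FPKM left 11 silent A copies, an active minimum of 2 FPKM left 27 pairs (15 with a silent A and 12 with a silent D copy), and both limits in every library left 25 pairs (11 and 14). A silent limit of 0.2 FPKM gave 63 pairs, an active minimum of 0.5 FPKM gave 64, and the first list alone 38. The same lists without the demand for corresponding chromosomes, an alternative chosen after seeing the data, gave 52. Leaving out each library gave 42 to 47 pairs, with 19 to 24 silent A copies and 23 silent D copies each time, and 38 to 43 of them were shared with the 46.

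Of 1999 expressed pairs, 384 to 533 were called over the pseudocounts of 1 and 0.1, 491 of 2580 without the filter and 458 to 475 without one library. With the replicate block as the pairing, 483 pairs were called, and all 46 near-silent pairs remained called. At a pseudocount of 1, 43 near-silent pairs were called, and 42 to 44 without one library. The count of 10 flanking cases called towards the active side was the same in each alternative tried. The difference between flanks was -0.345 to -0.372 without one library, -0.289 at a pseudocount of 1, -0.205 as a median and -0.282 without the scaffold range, the last chosen after seeing the data. For adjacent genes it was 0.297 to 0.323 without one library, 0.174 with copies of near-silent pairs kept (also chosen after seeing the data), and reversed to -0.0322 with gene numbers up to 3 away. That wider window is made up mostly of other genes, and the cause was not tested. Exact tests over 3 libraries cannot pass 0.05.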

Other observations

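A further 6 pairs met both limits but joined chromosomes that do not correspond, which is 6 of the 24 expressed pairs of that kind (25.0%), against 46 of 1975 (2.33%) on corresponding chromosomes. Their values chose them, and the difference was not tested. Active copies of 4 of these pairs were at 10 FPKM or more. Gh_D02G0011 was at 32.6, 30.0 and 37.9 FPKM and Gh_A01G1395 at 0 in all libraries. Gh_D08G2452 was at 25.4, 26.1 and 32.8 FPKM and Gh_A01G0797 at 0 in all libraries. Both active D copies exceeded each active copy of the 46 pairs in every library. Gh_D09G0156 was at 0 in all libraries and Gh_A01G2133 at 15.4, 18.0 and 16.9 FPKM. Gh_D10G0983 was at 0, 0.0834 and 0.0356 FPKM and Gh_A02G1242 at 16.0, 18.8 and 12.2 FPKM. The other 2 had weaker active copies, Gh_D08G1220 at 3.38, 1.72 and 2.25 FPKM beside Gh_A02G0987 at 0.0977, 0 and 0.162 FPKM, and Gh_A01G1003 at 2.97, 3.67 and 3.85 FPKM, whose partner Gh_D13G0815 was at 0 in all libraries. Whether such pairs are true homeologs was not tested.

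Genes without a partner in the lists were found beside near-silent A01 copies in 7 of 34 cases (20.6%), beside active A01 copies in 7 of 32 (21.9%) and beside the A01 copies of the other expressed pairs in 410 of 2332 (17.6%).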
